A study of Mus musculus with 6 samples.

Results

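The enzymes and transporters of glycolysis and of the tricarboxylic acid (TCA) cycle were followed through Th17 culture by their accessible chromatin. CD4+ T cells of C57BL/6 mice had been profiled with ATAC-seq, an assay that marks open DNA through insertion by the Tn5 transposase. The tested cells had been grown for 48 h or 72 h under Th17 conditions, and the baseline was untreated naive CD4+ T cells. Th17 culture combined plate-bound antibodies to CD3ε at 0.25 μg/mL and to CD28 at 1 μg/mL with the cytokines TGF-β at 0.1 ng/mL and IL-6 at 20 ng/mL, per the labels. Each of the 3 conditions had 2 libraries labelled as independent biological replicates, but 1 list of peaks per condition was analysed, so no difference between conditions has a replicate check and no p-value is given.

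The set comprised 33 genes, chosen by name, of 21900 protein-coding genes in the RefSeq annotation of the mouse build GRCm38. Overlapping peaks of the 3 lists (1 bp or more in common) were joined into regions, and each gene was given the regions that overlapped its body or the 10 kb on either side. This gave 196 of the 81315 merged regions of the series. No region belonged to 2 of the 33 genes, but 78 of the 196 also lay within reach of another protein-coding gene. A region is called gained in a comparison when it held a peak at the later stage and none at the earlier, and lost when only the earlier stage held one. Both terms refer to lists of peaks, since the lack of a called peak does not mean closed chromatin. A region is near a gene end when the distance from its middle to the start or end of a protein-coding gene was at most 1 kb.

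Glycolysis breaks glucose down to pyruvate in the cytosol. Pyruvate is either reduced to lactate and exported or carried into mitochondria, where the pyruvate dehydrogenase complex turns it into acetyl-CoA for the TCA cycle. Resting T cells burn little glucose, and activated T cells are known to raise glucose uptake and lactate output while they grow. Th17 cells are known to rely strongly on glycolysis, driven in part by the transcription factor HIF-1α. Its core binding motif was searched here in the form ACGTG only.

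The lists differed in length, with 53259 peaks over 19.83 Mb in naive cells, 40624 peaks over 12.64 Mb at 48 h and 53926 peaks over 17.68 Mb at 72 h. Read depth is unknown, because the lists hold no reads or signal. The shortest list is that of 48 h, and counts with equal numbers of peaks per list are given with each comparison. The labelled cell types were checked against marker genes. All 7 T cell markers found in the annotation had regions in each list, and the 8 naive T cell markers had 82 regions in naive cells, 34 at 48 h and 41 at 72 h. Of these 8, 7 had more lost than gained regions at 72 h against naive cells, with Lef1 at 27, 9 and 15 and Satb1 at 19, 5 and 6. Klf2 went the other way, at 2, 3 and 4. The 10 Th17 markers had 41, 58 and 75 in the same order. Within that list Il17a had 0, 3 and 5 regions, Il23r had 9, 5 and 7, and Il22 had none. Regions at markers of other cells numbered 17, 17 and 31 in naive, 48 h and 72 h lists for B cells, 16, 6 and 8 for myeloid cells and 19, 11 and 15 for CD8 and NK cells. Of these lists, 6 of 7 B cell markers, 4 of 7 myeloid markers and 7 of 8 CD8 and NK markers had a region. Ebf1 of the B cell list had 4, 8 and 17 regions in the same order. Itgam of the myeloid list had 7, 1 and 1, and Eomes of the CD8 and NK list had 3, 4 and 4. Ms4a1, Lyz2, Csf1r, Adgre1 and Ncr1 of the same lists had 0 regions in every list. The part of such cells in the results below was not tested, and in bulk samples a change in the share of cells and a change within each cell cannot be told apart.

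Each of the 33 genes kept at least 1 region in all 3 lists. Such regions numbered 77, and 32 of them lay on a promoter listed for the gene. RefSeq promoter windows, from 250 bases before to 50 bases after a transcription start, were listed for 31 of the 33 genes, which left Slc2a3 and Idh3a without one. All 31 genes had at least 1 window on a region present in naive cells, at 48 h and at 72 h. The background share of genes with such a window was 48.7% over the 17492 protein-coding genes listed. That background was not limited to genes with a region on a promoter, and 45.7% of all 21263 windows met no region. The 31 genes had 49 windows and the 17492 genes had 21263, and a gene with more windows has more chances of such a match. Of the 49 separate windows of these genes, 42 lay on a region present in all 3 lists, or 85.7% with an exact 95% interval of 72.8 to 94.1% (background 46.4%). A further 6 windows met no region in any list (background 45.7%), and the remaining window, at Pkm, met a region seen at 48 h only. All intervals here are exact Clopper-Pearson intervals and cover counting error only.

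The 6 windows without a region belonged to genes with several starts, which differed between starts. At Hk1, the hexokinase of most tissues, the start at 62379908 on chromosome 10 met no region. The start at 62340421, inside the gene, lay in a region with scores of 225 at 48 h and 312 at 72 h, the scores being the authors' own value per peak on a scale that no header states. At Aldoa, the main aldolase, 1 of 3 listed starts met no region and the others lay in a region scored 165 at 48 h and 193 at 72 h. At Pfkm, the muscle-type phosphofructokinase, 2 of 4 starts met none, and likewise 1 of 2 at Aldoc and at Pdk1. Each of these 5 genes had another start on a region present in every list.

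Promoters of 7 genes are shown, 1 or more from glucose uptake, glycolysis, lactate, regulation and pyruvate entry, chosen after the values were seen to set promoters with ACGTG beside promoters without it, as the 250 bases before the start, read 5′ to 3′ on the strand of the gene from RefSeq GRCm38.p6. Capitals mark ACGTG on either strand, with overlapping matches joined into 1 site.
Slc2a1, chr4:119108495-119108744, plus strand: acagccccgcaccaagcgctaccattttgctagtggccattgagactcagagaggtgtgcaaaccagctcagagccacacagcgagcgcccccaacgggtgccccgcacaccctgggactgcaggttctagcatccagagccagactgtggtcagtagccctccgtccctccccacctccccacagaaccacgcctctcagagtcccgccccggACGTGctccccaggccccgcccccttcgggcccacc
Hk2, chr6:82774455-82774704, minus strand: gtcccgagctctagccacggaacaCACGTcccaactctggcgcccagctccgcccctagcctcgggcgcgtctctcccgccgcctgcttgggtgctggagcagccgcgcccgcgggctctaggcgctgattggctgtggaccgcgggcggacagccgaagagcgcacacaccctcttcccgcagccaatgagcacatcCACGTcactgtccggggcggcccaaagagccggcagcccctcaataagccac
Pkm, upstream start, chr9:59656326-59656575, plus strand: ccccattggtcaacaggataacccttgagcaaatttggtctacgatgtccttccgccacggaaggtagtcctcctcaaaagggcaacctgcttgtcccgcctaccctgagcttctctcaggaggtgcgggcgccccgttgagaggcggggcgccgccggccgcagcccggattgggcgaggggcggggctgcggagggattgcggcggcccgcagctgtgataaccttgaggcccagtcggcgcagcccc
Pkm, downstream start, chr9:59656977-59657226, plus strand: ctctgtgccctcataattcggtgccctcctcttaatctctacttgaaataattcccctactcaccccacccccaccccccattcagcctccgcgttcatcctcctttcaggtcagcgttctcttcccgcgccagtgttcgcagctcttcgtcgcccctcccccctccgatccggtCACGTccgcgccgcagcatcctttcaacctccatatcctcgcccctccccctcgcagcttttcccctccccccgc
Ldha, chr7:46845554-46845803, plus strand: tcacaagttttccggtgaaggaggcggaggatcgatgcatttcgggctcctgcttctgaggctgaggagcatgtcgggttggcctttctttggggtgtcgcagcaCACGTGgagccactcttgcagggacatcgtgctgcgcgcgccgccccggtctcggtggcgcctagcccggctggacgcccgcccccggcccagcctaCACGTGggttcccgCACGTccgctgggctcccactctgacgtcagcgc
Slc16a3, chr11:120948817-120949066, plus strand: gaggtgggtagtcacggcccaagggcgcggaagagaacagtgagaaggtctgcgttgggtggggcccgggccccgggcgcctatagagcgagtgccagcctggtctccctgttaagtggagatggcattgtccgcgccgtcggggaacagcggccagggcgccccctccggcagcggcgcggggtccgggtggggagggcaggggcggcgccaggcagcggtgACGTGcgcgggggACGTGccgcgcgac
Pfkfb4, chr9:108991652-108991901, plus strand: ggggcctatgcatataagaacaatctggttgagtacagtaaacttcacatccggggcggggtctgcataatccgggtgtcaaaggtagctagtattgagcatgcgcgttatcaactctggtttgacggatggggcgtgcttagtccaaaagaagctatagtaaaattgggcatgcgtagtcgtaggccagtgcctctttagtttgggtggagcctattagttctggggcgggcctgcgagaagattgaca
Pdhb, chr14:8172993-8173242, minus strand: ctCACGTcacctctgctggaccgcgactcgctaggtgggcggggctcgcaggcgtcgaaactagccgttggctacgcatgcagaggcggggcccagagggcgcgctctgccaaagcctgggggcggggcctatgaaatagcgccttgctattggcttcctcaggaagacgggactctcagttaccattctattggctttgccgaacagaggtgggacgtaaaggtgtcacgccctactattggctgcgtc

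The Ldha promoter held 3 such sites, 2 of them within the E-box CACGTG, Hk2 and Slc16a3 held 2 each, and the upstream Pkm start and Pfkfb4 held none. Other forms of the HIF core motif, such as GCGTG, were not searched, so a promoter without ACGTG may hold one. Over all 49 windows, 22 held ACGTG in the 250 bases before the start, or 44.9%, against 17.8% of the 21263 windows of all protein-coding genes. In gene terms 14 of 31 held it in at least 1 window, and the same share over all genes was not computed, so this count has no background. The motif CACGTG, which contains ACGTG on both strands, was found in 7 windows (14.3%, against 6.63% of all windows). The GC box GGGCGG was found in 27 windows (55.1%, against 42.6%) and the CCAAT box CCAAT in 19 (38.8%, against 35.4%). Motifs of factors active in Th17 culture were also counted. TGANTCA, the AP-1 motif, was in 1 window (2.04%, against 6.13%), TTCNNNGAA, the STAT motif, in 2 (4.08%, against 6.58%) and AGGTCA, the ROR element, in 8 (16.3%, against 12.8%). Several windows of a gene overlap, so windows are not independent, and a match describes letters and not binding.

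Peak lengths on the promoters gave a second readout of the same regions. Over the 32 promoter regions present in all 3 lists, the median peak length was 740.5 bp in naive cells, 649 bp at 48 h and 732.5 bp at 72 h. The median ratio was 0.868 for 48 h over naive and 0.940 for 72 h over naive. Over the 8027 such regions of all listed promoters the same ratios were 0.782 and 0.901. Single genes lay on either side of these medians. Ldha, the lactate dehydrogenase subunit that favours lactate formation, had 1659 bp in naive cells, 610 bp at 48 h and 758 bp at 72 h. Pdk1, the kinase that switches off pyruvate dehydrogenase, had 1184, 942 and 754 bp in the same order. The promoter of Slc16a1, which encodes the lactate transporter MCT1, was longer at each later stage, with 1102 bp in naive cells, 1173 bp at 48 h and 1390 bp at 72 h. Slc16a3, which encodes the lactate exporter MCT4, had 270, 312 and 391 bp, and Eno1, the enolase of most tissues, had 479, 755 and 741 bp. These genes were picked for their lengths after the values were seen.

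**Figure D1:**
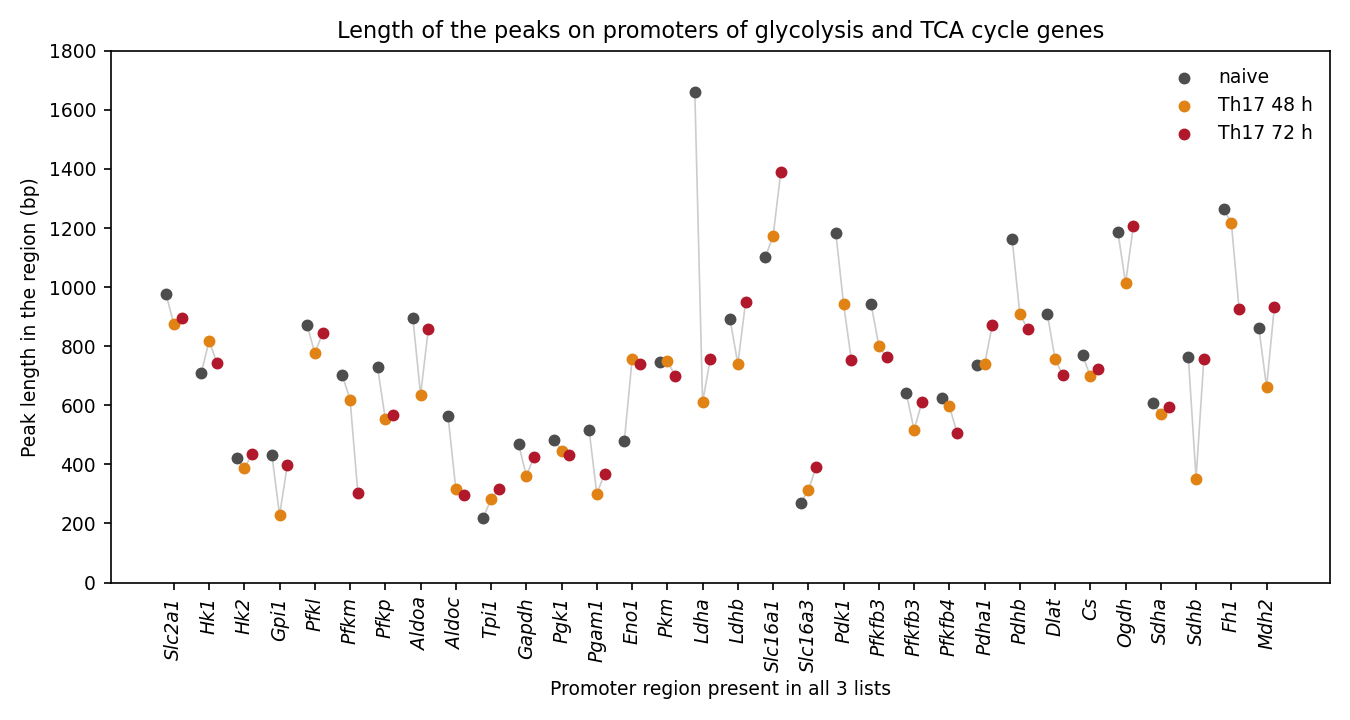
Length of the peaks (bp, vertical axis) on each promoter region present in all 3 lists, for naive cells, Th17 48 h and Th17 72 h, with 1 point per list and lines joining the points of a region. Ldha stands out with 1659 bp in naive cells against 610 and 758 bp later, and Slc16a1 reaches 1390 bp at 72 h.

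Scores within the 72 h list ranked the promoters. Pdhb, which encodes the beta chain of pyruvate dehydrogenase, had the highest at 529, followed by Fh1, the fumarase of the TCA cycle, at 366, and Ogdh, part of the oxoglutarate dehydrogenase complex, at 353. Hk2, the inducible hexokinase, had 319 and Hk1 had 312. Slc16a3 had the lowest at 52, where the median of all 72 h peaks was 76. The median over the 32 promoter regions was 231, against 196 over the 8027 promoter regions of the series. In the 48 h list Fh1 ranked highest at 283, then Pdhb at 262, Sdha, the flavoprotein of succinate dehydrogenase, at 258 and Sdhb, its iron-sulphur partner, at 253.

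The comparison of 48 h with naive cells asks which regions differ early in Th17 culture. The 33 genes had 101 regions at 48 h, against 145 in naive cells, with 21 gained and 65 lost. With the widest peaks of each list, as many as in the shortest list, 27 were gained and 44 lost. Gained regions were 20.8% of the 48 h regions (95% interval 13.4 to 30%), where the background over all regions was 38.8%. Lost regions were 44.8% of the naive regions (36.6 to 53.3%), where the background was 55.9%. By gene, 25 of 33 had more lost than gained regions (background 49.1% of the 16632 genes with a region), 2 had more gained than lost (background 19.5%) and 6 had equal numbers. The set had a median of 5 regions per gene, and all genes with a region had a median of 4.

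Regions were then counted by place, since 64 of the 196 (32.7%) were near gene ends, where the background was 19.7%. Near gene ends, 6 of 48 regions at 48 h were gained (12.5%, background 12.2%) and 12 of 54 naive regions were lost (22.2%, background 24.5%). Away from gene ends, 15 of 53 were gained (28.3%, 95% interval 16.8 to 42.3%, background 50.4%) and 53 of 91 were lost (58.2%, 47.4 to 68.5%, background 66.6%). Regions present in all 3 lists made up 41 of the 64 near gene ends (64.1%, 51.1 to 75.7%, background 60.4%) and 36 of the 132 away from them (27.3%, 19.9 to 35.7%, background 17.0%). Over both places they numbered 77 (39.3%, background 25.6%). Near gene ends the intervals of the set held the shares of the series. Away from them the interval of the constant share lay above the series and that of the gained share below it, while that of the lost share held it. The constant regions away from gene ends included promoter regions at starts inside Hk1, Pfkm, Aldoa, Ldha, Pfkfb3 and Pfkfb4. Shares without these promoters were not computed, so the values do not describe regions away from promoters alone. By definition every region of the set lay within reach of a gene. The background for regions away from gene ends, and for all regions, had no such limit, here and in the other comparisons. A background of regions within reach of a gene was not computed, so the part of this difference in the shares was not tested.

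**Figure D2:**
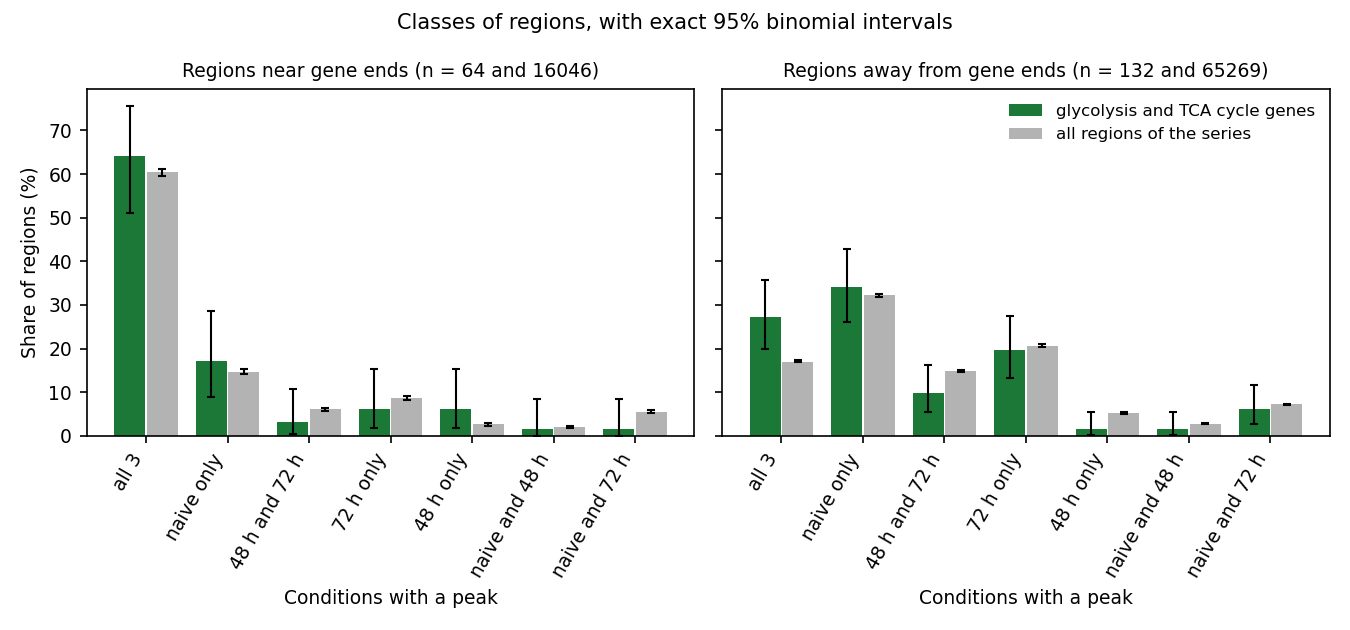
Share of regions (%, vertical axis) in each class, named by the lists that hold a peak, for the 33 genes and for all regions of the series, near gene ends and away from them. Bars are shares and lines are exact 95% binomial intervals, and the share present in all 3 lists away from gene ends was 27.3% at the 33 genes and 17.0% over the series. Regions away from gene ends include promoters at starts inside genes, and those of the series were not limited to the reach of a gene.

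The comparison of 72 h with naive cells asks the same after longer culture. The set had 131 regions at 72 h, against 145 in naive cells, with 45 gained and 59 lost, or 29 and 43 with equal numbers of peaks per list. Gained regions were 34.4% of the 72 h regions (26.3 to 43.1%, background 49.2%) and lost regions 40.7% of the naive regions (32.6 to 49.2%, background 49.2%). Losses outnumbered gains at 19 genes (background 36.6%), gains outnumbered losses at 7 (background 33.9%) and equal numbers at 7. Of the 45 gained regions, 15 were already present at 48 h. Near gene ends, 6 of 48 regions at 72 h were gained (12.5%, background 18.3%) and 12 of 54 naive regions were lost (22.2%, background 20.2%). Away from them, 39 of 83 were gained (47.0%, 35.9 to 58.3%, background 59.4%) and 47 of 91 were lost (51.6%, 40.9 to 62.3%, background 59.1%). The naive list serves both comparisons, and a naive peak that was not called would add a gained region to each.

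The gained regions were also counted by their position relative to the gene. Among the 15 regions without a naive peak that both Th17 stages shared, 13 lay inside the gene and 2 outside, and among the 30 seen at 72 h only, 20 lay inside, 1 crossed a gene end and 9 lay outside. Of the 56 naive-only regions, 36 lay inside, so an inside position was not particular to gains. The shared ones had a median 72 h score of 76, against 91 for the same class over the series, and those at 72 h only had 50.5, against 51. The highest score among all 45 was 200, so none of them reached the median of 231 seen at the promoters.

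**Figure D3:**
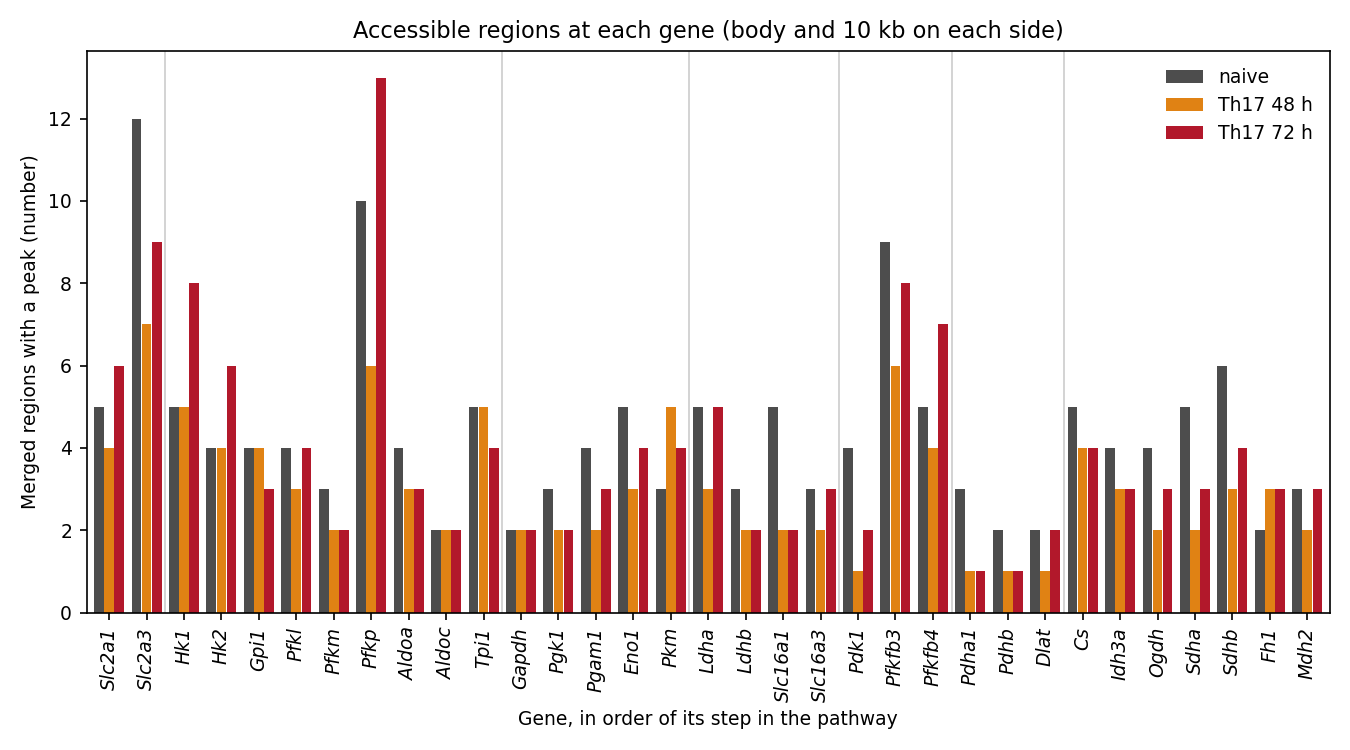
Number of merged regions with a peak (vertical axis) at each of the 33 genes in naive cells, Th17 48 h and Th17 72 h, with genes in the order of the pathway and grey lines between steps. Slc2a3 has the most in naive cells, 12, and Pfkp the most at 72 h, 13.

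Glucose enters T cells through GLUT1, encoded by Slc2a1, and GLUT3, encoded by Slc2a3, and these loci differed. Slc2a1, on chromosome 4 from 119108745 to 119137330, had 5 regions in naive cells, 4 at 48 h and 6 at 72 h. Its promoter region and the region from 119105779 to 119106114 were in all 3 lists. A pair of neighbouring regions inside the gene, from 119125543 to 119125812 and from 119125914 to 119126359, was absent from naive cells and present at both later stages, the second with scores of 58 at 48 h and 89 at 72 h. The naive-only region from 119127146 to 119127686, 541 bp wide, lay just beyond that pair. The other naive-only region, from 119116405 to 119116572, and the region at 72 h only, from 119102318 to 119102474, lay apart from them.

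Slc2a3, on chromosome 6 from 122727809 to 122802363, had 12 regions in naive cells, 7 at 48 h and 9 at 72 h. No member lost more on balance at 48 h, with 1 region gained and 6 lost, and at 72 h it had 2 gained and 5 lost. All 5 naive-only regions lay inside the gene, and the one from 122741974 to 122742855 was 882 bp wide, the widest of the 56 naive-only regions of the set, whose median width was 190 bp. The region gained at both stages, from 122758761 to 122759006, lay inside the gene with scores of 97 and 166. The region at the gene end, from 122801109 to 122802285, was in every list. The highest score of the locus, 390 at 72 h, belonged to a constant region outside the gene from 122810240 to 122811637, which is also within reach of Foxj2. Its peak length was 1382 bp in naive cells, 1106 bp at 48 h and 903 bp at 72 h.

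The enzymes of upper glycolysis trap glucose and split it into triose phosphates. Their 9 genes had 41 regions in naive cells, 34 at 48 h and 45 at 72 h. Of the 45 regions gained by the set at 72 h against naive cells, 18 lay at these genes, 9 of them at Pfkp alone, and 14 regions were lost there. Pfkp, the platelet-type phosphofructokinase that catalyses the committed step, had 10 regions in naive cells, 6 at 48 h and 13 at 72 h. Its balance was opposite at the stages, with 2 gained and 6 lost at 48 h and 9 gained and 6 lost at 72 h. It lies on chromosome 13 from 6579874 to 6649060. Its gained region with the highest score spanned 6618625 to 6619050 inside the gene, with 160 at 48 h and 200 at 72 h. The other region gained by 48 h, from 6595459 to 6595715, had scores of 56 and 55, and the remaining 7 were at 72 h only, with scores from 39 to 96. The widest naive-only region of the gene, from 6604676 to 6604915, was 240 bp wide.

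Hk2, on chromosome 6 from 82725025 to 82774454, is the hexokinase induced on T cell activation. It had 4 regions in naive cells, 4 at 48 h and 6 at 72 h, with 2 gained and 2 lost at 48 h and 4 gained and 2 lost at 72 h. The promoter region, from 82774343 to 82774782, was in every list with 420, 387 and 434 bp. Within the gene, the region from 82753162 to 82753575 was gained at both stages with scores of 117 and 131, and the region from 82773271 to 82773616, close to the promoter, had scores of 76 at 48 h and 40 at 72 h. Both lost regions flanked the promoter and were narrow, at 112 and 134 bp. Hk1, which is on chromosome 10 from 62268855 to 62379920, had 5 regions in naive cells, 5 at 48 h and 8 at 72 h, with 4 gained and 1 lost at 72 h. Its gained regions had low 72 h scores, from 30 to 55.

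The other upper enzymes had few differences between lists. Pfkl, the liver-type phosphofructokinase, had 4, 3 and 4 regions in the order of the stages, with 0 gained in either comparison, and Pfkm had 3, 2 and 2. Gpi1, which isomerises glucose 6-phosphate, had 4, 4 and 3, Aldoa 4, 3 and 3, and Tpi1, the triose phosphate isomerase, 5, 5 and 4. Aldoc, the brain-type aldolase, had 2 regions in each list and was the only one of the 33 genes with no gained or lost region in any comparison. At Pfkm, the region on the inner starts, from 98108273 to 98108973 on chromosome 15, had 701 bp in naive cells, 619 bp at 48 h and 304 bp at 72 h. Its score was 197 at 48 h and 89 at 72 h, and scores are not compared between lists.

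In lower glycolysis, where ATP is made and pyruvate formed, Pkm stood apart from the other genes in its counts. The 5 genes together had 17 regions in naive cells, 14 at 48 h and 15 at 72 h. Pkm, which encodes the pyruvate kinase of most growing cells, had 3 regions in naive cells, 5 at 48 h and 4 at 72 h, with 4 gained and 2 lost at 48 h and 3 gained and 2 lost at 72 h. It lies on chromosome 9 from 59656576 to 59679372 on the plus strand. The widest gained region, 610 bp from 59679906 to 59680515, lay just past the 3′ end of the gene, 534 bp from it, with scores of 64 and 76, and it is also within reach of Gramd2. Inside the gene, the region from 59659674 to 59659984 was gained at both stages with scores of 47 and 95.

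The downstream start of Pkm, whose promoter is printed above beside that of the upstream start, met a region of 172 bp at 48 h only, from 59657098 to 59657269, with a score of 53. A naive-only region of 118 bp, from 59657346 to 59657463, lay just beyond it, so the naive and 48 h peaks there did not share a base. The upstream start lay in a region present in every list, with 745, 751 and 700 bp. The start of Pkm thus had a constant promoter next to narrow regions seen in a single list.

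The rest of lower glycolysis had as many regions as in naive cells or fewer. Eno1 had 5, 3 and 4 regions in naive cells, at 48 h and at 72 h, Pgam1, the phosphoglycerate mutase, had 4, 2 and 3, and Pgk1, the phosphoglycerate kinase, had 3, 2 and 2. Gapdh, the glyceraldehyde phosphate dehydrogenase, had 2 in each list, but only its promoter region was the same in all of them. A region at 48 h only lay 459 bp outside the gene, a region inside it was in naive cells only, and a 256 bp region across its upstream end, from 125166442 to 125166697 on chromosome 6, was at 72 h only with a score of 68.

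**Figure D4:**
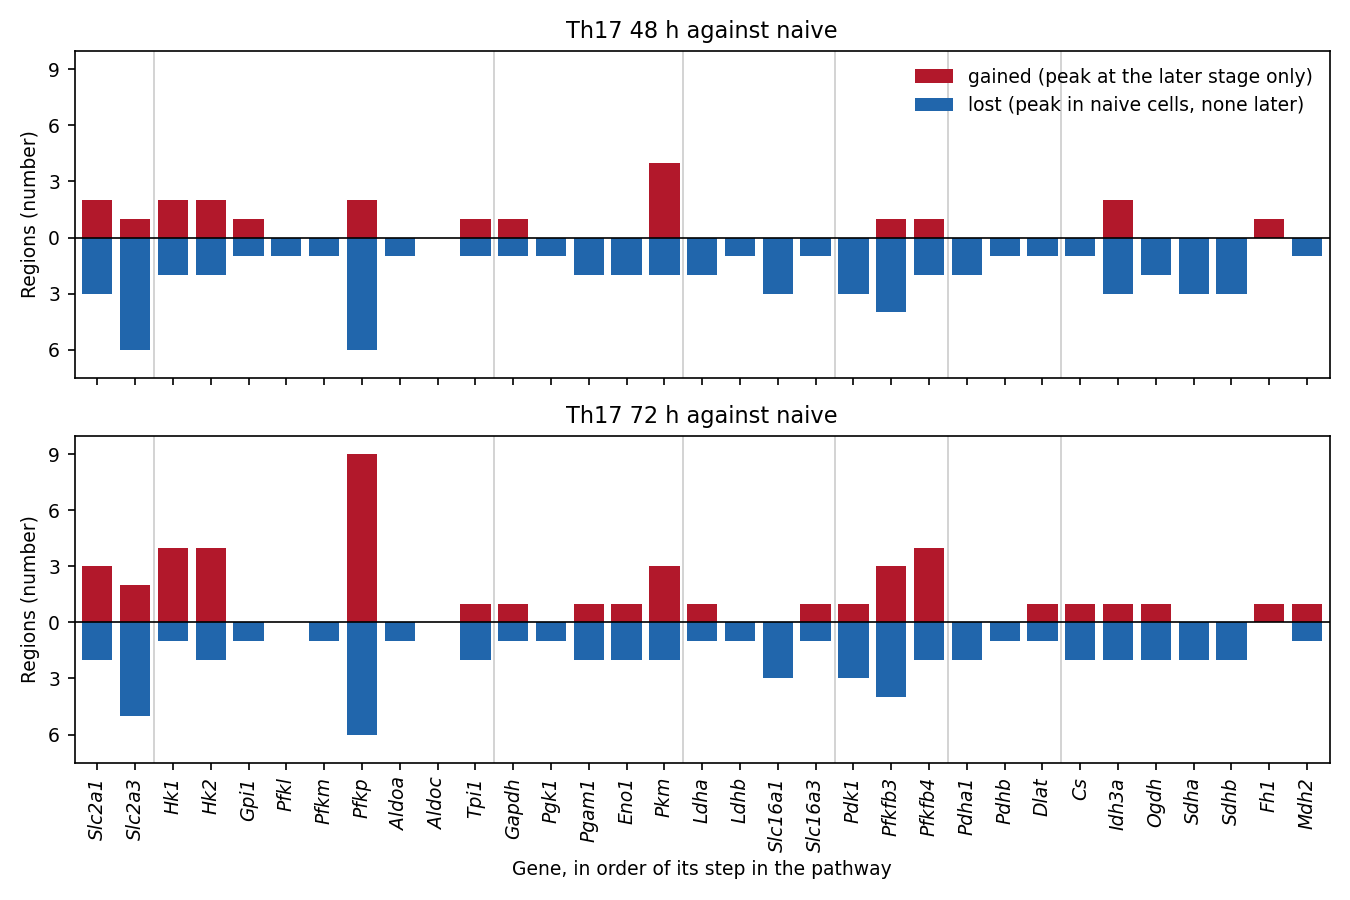
Regions gained (upward, red) and lost (downward, blue) at each of the 33 genes, for Th17 48 h against naive cells (top) and Th17 72 h against naive cells (bottom). Pkm has 4 gained at 48 h and Pfkp has 9 gained at 72 h, while Slc2a3 has 6 lost at 48 h and 5 at 72 h.

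The lactate genes had no gained region at 48 h. Together Ldha, Ldhb, Slc16a1 and Slc16a3 had 16 regions in naive cells, 9 at 48 h and 12 at 72 h, with 0 gained and 7 lost at 48 h and 2 gained and 6 lost at 72 h. Slc16a1, on chromosome 3 from 104638664 to 104658462, had 5 regions in naive cells and 2 at each later stage. Its 3 lost regions were narrow to moderate in width, and the widest, 479 bp from 104630817 to 104631295, lay 7369 bp outside the gene. The longer promoter peaks described above thus stood beside fewer regions around the gene.

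Ldha had 5, 3 and 5 regions in naive cells, at 48 h and at 72 h. Its gained region, 193 bp from 46845287 to 46845479 on chromosome 7, lay just ahead of the printed promoter window with a score of 74 at 72 h. The constant region from 46833311 to 46833615, outside the gene, had scores of 70 at 48 h and 287 at 72 h, where the medians of those lists were 69 and 76, and it is also within reach of Gtf2h1. Ldhb, the subunit that favours pyruvate formation, had 3, 2 and 2 regions. Slc16a3 had 3, 2 and 3, with its constant region from 120950732 to 120951180 on chromosome 11, inside the gene, at 296, 261 and 437 bp.

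Among the regulators, both PFKFB enzymes and Pdk1 had unlike counts. Pfkfb4, which sets the level of the allosteric activator of phosphofructokinase, had 5 regions in naive cells, 4 at 48 h and 7 at 72 h, with 4 gained and 2 lost at 72 h. On chromosome 9, where it spans 108988272 to 109032236, regions at 72 h only from 108987272 to 108987401 and from 108987727 to 108987896 lay outside its upstream end, with scores of 71 and 110. Col7a1 and Ucn2 are within reach of the same pair. The region gained at both stages, from 109023068 to 109023287, lay between a pair of naive-only regions and had scores of 83 and 103.

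Pfkfb3, the isoform with the strongest kinase activity, had 9 regions in naive cells, 6 at 48 h and 8 at 72 h. It had 1 gained and 4 lost at 48 h and 3 gained and 4 lost at 72 h, all inside the gene. The region gained at both stages, from 11530182 to 11530523 on chromosome 2, had scores of 85 and 153. A constant region from 11534824 to 11535977 held 1154 bp of peak in naive cells, 284 bp at 48 h and 336 bp at 72 h, the lowest ratio of 48 h to naive, 0.246, among the 77 constant regions of the set. Pdk1 had 4 regions in naive cells, 1 at 48 h and 2 at 72 h. At 48 h its promoter region alone remained, and the region gained at 72 h, 114 bp from 71905222 to 71905335 on chromosome 2, lay past the 3′ end with a score of 100.

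**Figure D5:**
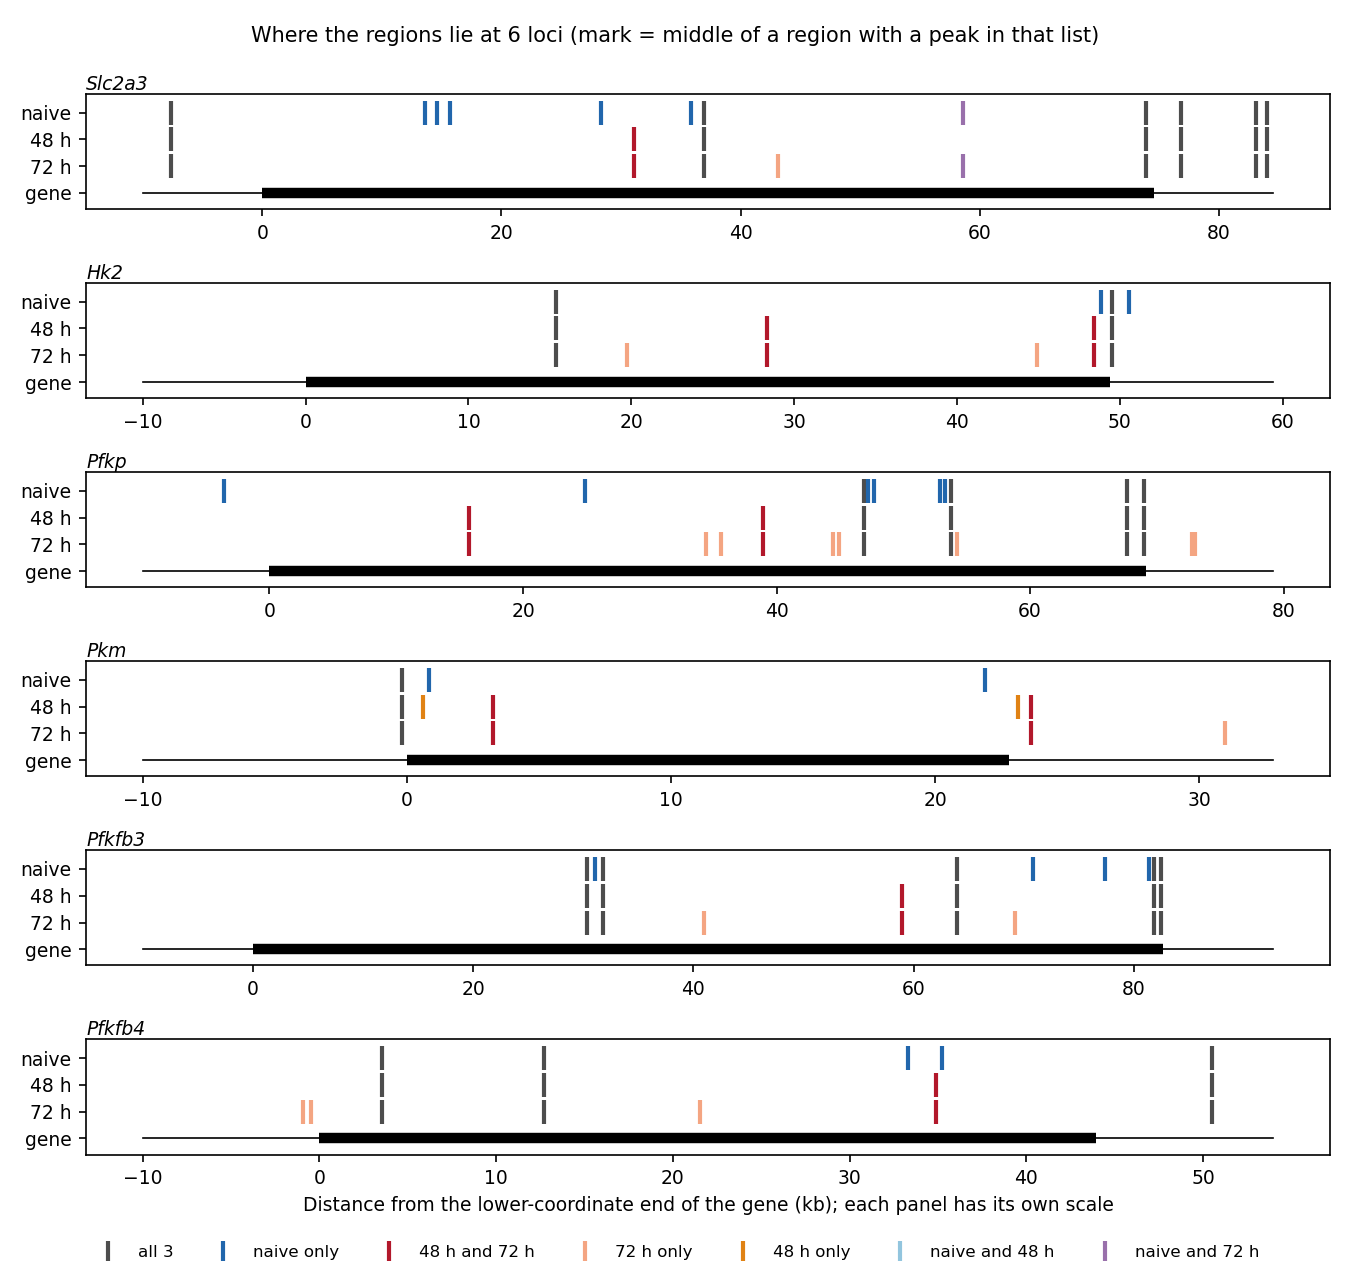
Position of each region (distance in kb from the lower-coordinate end of the gene, horizontal axis) at 6 loci in naive cells, Th17 48 h and Th17 72 h. Marks are the middles of regions with a peak in that list, coloured by the lists that hold the region, and the black bar is the gene. At Pfkp 7 regions appear at 72 h only, and at Slc2a3 5 regions appear in naive cells only.

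At the mitochondrial entry point, the pyruvate dehydrogenase genes had only their promoter regions at 48 h. Pdha1, the alpha subunit, had 3 regions in naive cells and 1 at each later stage, Pdhb had 2, 1 and 1, and Dlat, the acetyltransferase subunit, had 2, 1 and 2. The lost regions were 100 to 233 bp wide. Dlat gained a region of 196 bp inside the gene at 72 h, from 50650272 to 50650467 on chromosome 9, with a score of 116, the highest of the 30 regions at 72 h only.

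The 7 TCA cycle genes had 29 regions in naive cells, 19 at 48 h and 23 at 72 h. Gains were few, with 3 gained and 13 lost at 48 h and 5 gained and 11 lost at 72 h. Sdha had 5, 2 and 3 regions, and its lost regions of 127 and 136 bp flanked the promoter on either side. A region inside Sdha, from 74341143 to 74341433 on chromosome 13, had a peak in naive cells, none at 48 h and one again at 72 h with a score of 131. Sdhb had 6, 3 and 4 regions, and its promoter peak had 764 bp in naive cells, 352 bp at 48 h and 756 bp at 72 h. Fh1 was the only one of these 7 genes with more gained than lost regions, at 2, 3 and 3, and its gained region was small, 146 bp from 175602374 to 175602519 on chromosome 1, with scores of 44 and 68.

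The remaining TCA cycle genes had between 0 and 2 gained and between 1 and 3 lost regions in each comparison with naive cells. Cs, the citrate synthase, had 5, 4 and 4 regions, Idh3a, the catalytic subunit of the NAD-dependent isocitrate dehydrogenase, had 4, 3 and 3, Ogdh had 4, 2 and 3, and Mdh2, the mitochondrial malate dehydrogenase, had 3, 2 and 3. Idh3a gained a region at both stages inside the gene, from 54602429 to 54602717 on chromosome 9, with scores of 72 and 50.

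Between the stages of Th17 culture, 72 h was set against 48 h. At the 33 genes 39 regions were gained and 9 lost. With the widest peaks of each list, as many as in the shortest list, the counts were nearly even, at 21 gained and 18 lost. The lost share was then 17.8%, and no share over the series was computed for that setting. Gained regions were 29.8% of the 72 h regions (22.1 to 38.4%, background 39.4%) and lost regions 8.91% of the 48 h regions (4.16 to 16.2%, background 15.9%). More gained than lost regions were counted at 18 genes (background 48.8%) and more lost than gained at 3, Gpi1, Tpi1 and Pkm (background 11.1%). Near gene ends, 5 of 48 were gained (10.4%, background 17.7%) and 5 of 48 lost (10.4%, background 6.45%), and away from them 34 of 83 were gained (41.0%, background 46.6%) and 4 of 53 lost (7.55%, background 20.0%). Of the 39 regions, 9 had also been present in naive cells. Those 9 had a median 72 h score of 50, against 52 for the same class over the series.

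Whether a naive region was lost went with its width. At or above 273 bp, the median width of naive peaks, 11 of 75 naive regions of the set were absent at 48 h (14.7%, 7.56 to 24.7%), and below it 54 of 70 were (77.1%, 65.6 to 86.3%). Over the series the shares were 34.7% for wide and 77.8% for narrow regions. Near gene ends, 0 of 37 wide regions were absent at 48 h, and the exact interval of 0 to 9.49% held the 8.5% of the series. A limit of 3 counts would put the share at up to 8.11%. Away from gene ends, 11 of 38 wide regions were absent (28.9%, 15.4 to 45.9%), against 50.3% over the series. Narrow regions away from gene ends were lost at 79.2%, against 78.9%. At 72 h, 7 of 38 wide regions away from gene ends were absent (18.4%, 7.74 to 34.3%), against 40.9% over the series. These 38 included the constant promoter regions at starts inside Hk1, Pfkm, Aldoa, Ldha, Pfkfb3 and Pfkfb4. Shares of wide regions without them were not computed. The series shares, other than those near gene ends, were again not limited to regions within reach of a gene.

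Other genes of the same pathways were counted from lists drawn up by function. The 17 other glycolytic isoforms and transporters had 41 regions in naive cells, 28 at 48 h and 36 at 72 h, with 8 gained and 21 lost at 48 h and 12 gained and 17 lost at 72 h. Pgk2, Pgam2 and Ldhc, which are isoforms of testis or muscle, had 0 regions in every list. The genes with the most unequal counts at 72 h were Ldhd, the mitochondrial D-lactate dehydrogenase, with 0 gained and 4 lost, and Bpgm, the bisphosphoglycerate mutase, with 1 gained and 3 lost. The 14 regulators of pyruvate and phosphofructokinase had 34, 29 and 31 regions in the order of the stages, and Pdk4, a kinase of fasting tissues, had none. Pdk3, Pfkfb2 and Pcx each lost 2 more regions than they gained at 72 h.

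The 14 other TCA cycle genes had 46 regions in naive cells, 28 at 48 h and 43 at 72 h, with 5 gained and 23 lost at 48 h and 16 gained and 19 lost at 72 h. Suclg2, the GTP-forming succinyl-CoA ligase subunit, had 7 gained and 1 lost at 72 h, and Idh2, the mitochondrial NADP-dependent isocitrate dehydrogenase, had 0 gained and 4 lost. The 9 genes of the pentose phosphate pathway, which branches from glycolysis to make NADPH and ribose, had 26, 18 and 22 regions, with 1 gained and 9 lost at 48 h and 3 gained and 7 lost at 72 h. H6pd and Rpe each had 0 gained and 2 lost at 72 h, and Tktl1 had no region.

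The 10 kb limit of the flanks left out further regions. The 32 regions lying 5 to 10 kb from a gene of the set included 13 in all 3 lists, 10 in naive cells only and 5 in Th17 lists only. Of the 21 lying 10 to 15 kb away and therefore not counted, 7 were in all 3 lists, 5 in naive cells only and 6 in Th17 lists only. The outermost region counted was 9906 bp from Pgam1 and the nearest left out was 10435 bp from Hk2.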

How the data were processed

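Chromatin accessibility was measured by ATAC-seq, per the labels' protocols. The authors deposited 1 peak list per condition. The sources used here do not give whether each list pools its libraries. Bowtie2 2.3.4.1, SAMtools 1.9, MACS2 2.2.6, deepTools and the builds GRCm38 and mm10 are named in the submitters' processing notes, without their settings. The score per peak is the authors' deposited value and was used only to describe or rank peaks within the 48 h and 72 h lists, since the naive list gives none. Peak callers join and split signal by depth and width, so list length and peak width both bear on which regions count as shared.

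Positions were merged into regions with Python 3.11.15, pandas 2.3.3 and numpy 2.4.6, and set against RefSeq gene positions of GRCm38.p6. Exact binomial intervals at 95% came from scipy 1.17.1, and the limit for a count of 0 was 3 counts of the total. The merging and counting were tested on simulated data. Promoter sequences were taken from RefSeq GRCm38.p6, and motifs were searched on both strands in the 250 bases before each start. All 33 genes were counted. Described in full were those with more gained than lost regions and the 6 with the largest net loss in either comparison with naive cells. Single regions described at other genes, among them Dlat, Ldha, Slc16a3, Pfkm, Gapdh and Idh3a, the printed promoters and the genes named for promoter length or score were chosen after their values were seen. The members, lists and rules were chosen with earlier results of these data known. Alternatives changed the flank, the limit for gene ends, peak width, peak number, overlap and score.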

Additional observations from a re-analysis of the deposited data

How the results depend on the processing

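Of 56 values recomputed under alternatives, 40 stayed within the 95% interval of the reported share and 16 did not, and the cause of each shift was not tested. Shares over the series were not recomputed, so these values have no background and the differences between set and series were not checked under the alternatives. With only the wider peaks of each list, from its median width upward, the lost share was 29.3% at 48 h and 18.7% at 72 h against naive cells, the gained share at 72 h against naive cells was 22.8%, and the share near gene ends present in all 3 lists was 77.3%. With sharing defined by an overlap of at least 50% of a peak, the lost shares were 57.1% at 48 h and 50.3% at 72 h, and this alternative gave no value for regions in all 3 lists. With 48 h and 72 h peaks at or above the median score, gained shares were 10% at 48 h and 15.6% at 72 h against naive cells and 14.3% at 72 h against 48 h, and lost shares were 56.6% at 48 h and 55.2% at 72 h against naive cells. With the widest peaks, as many as in the shortest list, 20.2% were gained and 17.8% lost at 72 h against 48 h. Merging peaks up to 500 bp apart, chosen after seeing the data, gave lost shares of 36.2% at 48 h and 31.9% at 72 h and 77.6% near gene ends in all 3 lists. No paired analysis was possible because each condition had 1 peak list and no test, and for the same reason no replicate could be left out. Read depth is unknown.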

Other observations

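Lost regions of the glycolysis and TCA cycle genes lay within 1 kb of a region of the later list in a larger share than over the series. Of the 65 regions lost at 48 h against naive cells, 24 had a 48 h region within 1 kb (36.9%, exact 95% interval 25.3 to 49.8%), against 19.1% of all lost regions of the series. Of the 59 lost at 72 h against naive cells, 24 had a 72 h region within 1 kb (40.7%, 28.1 to 54.3%), against 23.3% of the series. Among gained regions the shares were 6 of 21 at 48 h (28.6%, 11.3 to 52.2%, against 14.0%) and 8 of 45 at 72 h (17.8%, 8 to 32.1%, against 13.2%), and both intervals held the share of the series. At Hk2, Sdha and Pkm such lost regions stood beside the constant promoter. Whether these are separate elements or parts of 1 accessible stretch split by peak calling was not tested. The neighbour shares were not split by place, and 32.7% of the regions of the set were near gene ends, against 19.7% over the series. Regions of the series were also not limited to the reach of a gene, as those of the set were.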
